A study of Mus musculus with 188 samples.

Results

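Brain slice cultures exposed for 24 h to 400 µM heme-albumin were compared with those exposed to 200 µM, to show which transcripts still moved at the last doubling of the dose and which stayed level. The 20 libraries, 10 at each dose, were all those that the labels of the first sequencing batch give these treatments, out of 60 libraries in that batch and 188 in the series. The slices were 150 µm coronal sections of brain from C57BL/6J mice of both sexes aged 6 to 8 weeks, kept 2 to an insert and treated on culture day 7. Heme-albumin is hemin carried by human albumin, the weak plasma carrier of heme, and stands here for the heme set free when red cells break down after a bleed in the brain. The other groups of the batch used below were untreated controls and slices given 12.5 µM or 50 µM heme-albumin, with 10 libraries each, and a group given 200 µM heme bound to hemopexin (hemeHpx) that only helped to estimate the spread. The slices at 400 µM also received more albumin than those at 200 µM, and the dose of heme and the dose of its carrier cannot be told apart.

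Heme that enters a cell is opened by heme oxygenase 1 (Hmox1) to biliverdin, carbon monoxide and iron, and heme itself relieves the repressor BACH1 from Hmox1 and other genes that the factor NRF2 activates. ATF4, the factor of the integrated stress response, turns on genes for amino acid transport and synthesis, for the charging of tRNA and for the balance of glutathione. AP-1 and EGR factors are made within minutes of many kinds of injury and of growth factor signals. Heme also switches off its own synthesis through Alas1, the first and rate-limiting enzyme of that pathway.

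Total counts per library ran from 13421393 to 28939450 at 200 µM and from 14713479 to 29001202 at 400 µM. The shares of mitochondrially encoded counts overlapped (2.55% to 5.04% at 200 µM and 2.58% to 4.68% at 400 µM). Of the marker lists of 12 cell types, all but that of red blood cells held members that passed the filter on low counts. Neurons (17 of 17 markers), astrocytes (12 of 12), oligodendrocytes (12 of 12) and microglia (16 of 17) were represented by markers that passed. The largest difference in tissue content between libraries lay in the choroid plexus. Levels are given in CPM, a library's counts scaled to a common total. The leading choroid plexus transcript Ttr was at or below 0.679 CPM in 4 libraries at 400 µM and between 212 and 899 CPM in the other 6, whereas at 200 µM it was at or below 0.514 CPM in 8 libraries and at 446 and 1090 CPM in the other 2. Libraries over 10 CPM of Ttr thus numbered 6 of 10 at 400 µM, 2 of 10 at 200 µM and 3 of 10 in the controls, and the counts of the gene lists with calls are given again without these libraries. In these bulk samples fewer cells of a type and less RNA per cell cannot be told apart.

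**Figure D1:**
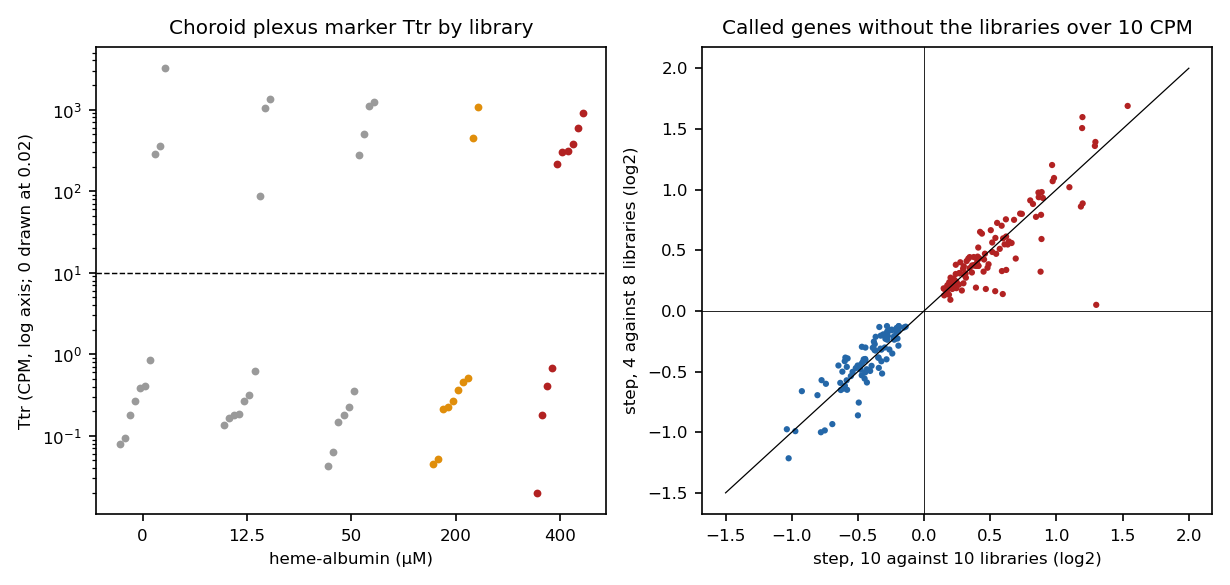
Left, the level of the choroid plexus transcript Ttr (CPM, log axis) in each library by heme-albumin dose, with a dashed line at 10 CPM: 6 libraries at 400 µM and 2 at 200 µM lie above it. Right, each point is 1 of the 197 genes called in the step, with its log2 difference over all 20 libraries on the x axis and over the 12 libraries below the line on the y axis (diagonal: equal values); no called gene changed sign.

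The step from 200 to 400 µM raised 110 genes and lowered 87 of 15554 tested (edgeR quasi-likelihood test, Benjamini-Hochberg adjusted p under 0.05), which is 0.707% and 0.559% of all genes. Against control, 200 µM had raised 1086 genes (6.98%) and lowered 1027 (6.6%), and 400 µM raised 2284 (14.7%) and lowered 2226 (14.3%), and both comparisons share the control libraries. Most changes of the step were small: 37 of the genes raised and 19 of those lowered moved by at least 1.5-fold, and 9 and 2 by at least 2-fold. The median log2 difference over all genes was 0.01. For 56.8% of all genes the step was not called and its 95% interval lay wholly within a rise of 25% or the inverse fall, and such genes are described here as level between the 2 doses. Level thus bounds the size of a step and does not exclude a smaller one. In 5 genes (0.0321% of all tested) the highest library of 1 dose lay below the lowest of the other. These were Egr1, an early growth response factor, which was higher at 400 µM, and Vxn, Mroh3, Atp6v0a2 and Pnlip, which were lower. Without the libraries over 10 CPM of Ttr, which left 8 libraries against 4, 36 genes were higher and 52 lower, of which 26 and 21 were among the 110 and 87, and none of the 197 genes changed sign. With the summed level of the choroid plexus markers as a covariate over all 60 libraries, the counts were 240 and 245, and 108 and 85 of the genes called without it were among them.

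**Figure D2:**
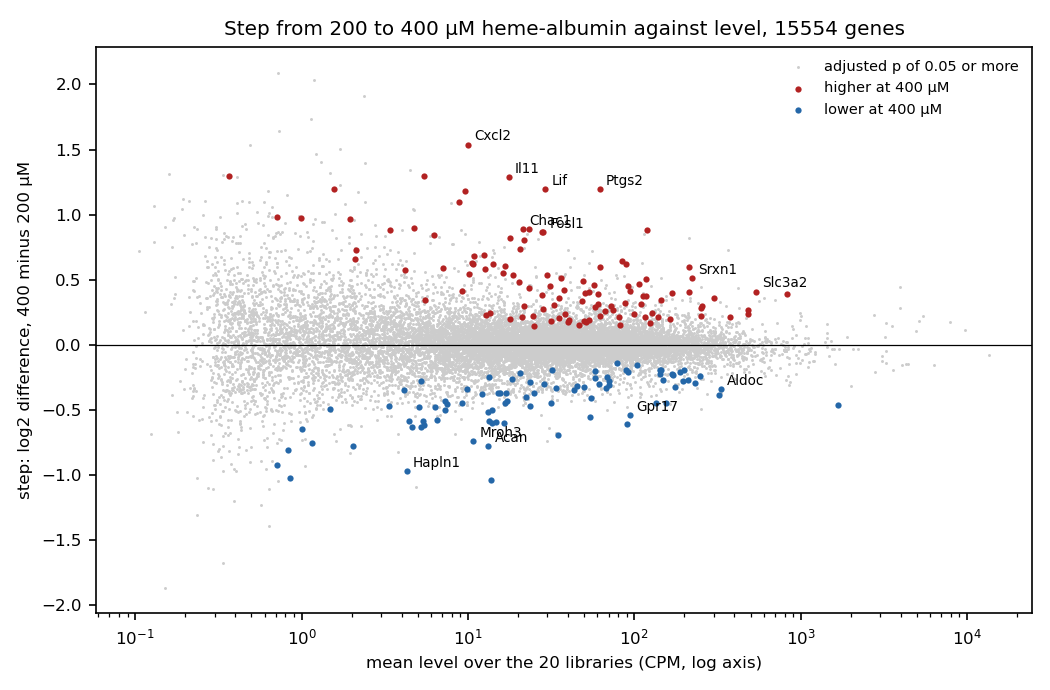
Each of 15554 genes by its mean level over the 20 libraries (x axis, CPM on a log scale) and its log2 difference between 400 µM and 200 µM (y axis). Red points are the 110 genes higher and blue points the 87 genes lower at 400 µM. The rises of at least 2-fold include the cytokines Cxcl2, Il11 and Lif, and the falls include Hapln1 and Acan.

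In the fit of all 60 libraries the step raised genes of the integrated stress response. Of 28 measured ATF4 targets, 12 rose in the step, none fell and the median difference was 0.35 on the log2 scale, against 0.707% of genes raised and a median of 0.01 over all genes. Chac1, which degrades glutathione, had 6.26, 14.6 and 25.7 CPM in the lowest, median and highest library at 200 µM and 10.4, 24.0 and 53.2 CPM at 400 µM. In 9 of the 10 libraries at 400 µM Chac1 exceeded the median of the lower dose, and its step was 0.89 ± 0.20 (log2 difference ± SE, adjusted p = 0.0117). Asns, asparagine synthetase, was at 98.8 ± 12.6 CPM at 200 µM and 128 ± 26.1 CPM at 400 µM (SD, n = 10 each), with a step of 0.37 ± 0.08 (edgeR adjusted p = 0.00872). Slc3a2, the heavy chain of the cystine and large amino acid transporters, went from 465 ± 62.2 to 617 ± 120 CPM and 7 of 10 libraries at 400 µM lay above the whole range at 200 µM. Sesn2, a leucine sensor that restrains mTORC1, rose by 0.45 ± 0.09 on the log2 scale (edgeR adjusted p = 0.00316). Cth, which makes cysteine from cystathionine, was a low transcript that went from 4.51 ± 1.79 to 8.08 ± 3.44 CPM. The other members that rose were Mthfd2, Slc7a1, Slc7a3, Cebpg, Stc2, Gdf15 and Ppp1r15a, with steps from 0.30 to 0.80. Atf4 itself, which is not on the list, rose by 0.36 ± 0.09 on the log2 scale. Without the libraries over 10 CPM of Ttr the step of Atf4 was 0.32 and lost its call (edgeR adjusted p = 0.226). The cytosolic tRNA synthetases moved less but in the same way: the median step was 0.16, and Aars, Cars, Gars and Nars, the enzymes for alanine, cysteine, glycine and asparagine, rose by 0.20 to 0.22 (4 of 20 raised, none lowered). Without the libraries over 10 CPM of Ttr the medians of the ATF4 targets and the tRNA synthetases were 0.31 and 0.17. In that setting all 12 ATF4 targets named above lost their call, and Slc7a5, which is not among the 12, was the only target that passed. Of the tRNA synthetases only Gars passed there. In the fit of the 20 libraries of the step alone, no member of either list passed in edgeR.

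The letters of the amino acid response element, to which ATF4 binds with C/EBP partners, were searched on both strands of the RefSeq promoters (GRCm38.p6, 250 bases before to 50 after each annotated start) as TGATGNAA. They stood in 8 of the 25 ATF4 targets with a promoter entry and in 5 of 12 tRNA synthetases, against 2.8% of the 11644 tested genes with an entry. Of the ATF4 targets that rose, 2 of the 10 with an entry held them, and of all genes that rose 8 of 85. Sites of genes that rose on these 2 lists are shown with 10 bases on each side, written on the strand of the gene with the matched letters in capitals (the reverse complement where the match is on the other strand).
Asns, chr6:7693215-7693242, minus strand: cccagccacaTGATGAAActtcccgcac
Chac1, chr2:119351039-119351066, plus strand: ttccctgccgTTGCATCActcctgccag
Aars, chr8:111033841-111033868, plus strand: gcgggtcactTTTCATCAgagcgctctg
Gars, chr6:55037961-55037988, plus strand: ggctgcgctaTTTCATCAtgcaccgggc
The Asns match begins 23 bases before the annotated start and the Chac1 match 193 bases before it. A match is only a description of the letters and not a measured binding site.

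Genes on the list of early response factors, not all of them transcription factors, moved in 1 direction. All 20 measured members had a positive step, against 8129 of all 15554 genes. Of them, 6 (Fosl1, Fosb, Jun, Egr1, Klf4 and Fosl2) passed the test, against 0.707% of all genes raised. None fell, and the median was 0.34. Fosl1, an AP-1 subunit, had 12.5, 18.6 and 26.3 CPM in the lowest, median and highest library at 200 µM and 16.9, 36.6 and 61 CPM at 400 µM. Its step of 0.87 ± 0.13 (edgeR adjusted p = 0.000211) came with 7 libraries at 400 µM above all those at 200 µM. Egr1 ranged from 82.4 to 115 CPM (median 96.4) at 200 µM and from 116 to 233 CPM (median 131) at 400 µM. The groups of Egr1 did not overlap, and the controls averaged 91.8 ± 18.5 CPM and the libraries at 50 µM 92.0 ± 13.5 CPM. Jun, the partner of the FOS proteins, rose by 0.40 ± 0.08 and Fosb by 0.90 ± 0.18 on the log2 scale. Without the libraries over 10 CPM of Ttr the median of the list was 0.40 and Fosl1, Egr1 and Jun passed. Outside the list Dusp5, a phosphatase that inactivates ERK, rose from 9.51 ± 1.64 to 15.3 ± 4.71 CPM (SD, n = 10 each), a step of 0.69 that was 0.43 and lost its call without those libraries (edgeR adjusted p = 0.111).

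Several cytokines were among the genes raised most. Of 23 measured cytokines and chemokines, 4 rose in the step, against 0.707% of all genes, none fell and the median was 0.47. Lif, an interleukin 6 family cytokine that acts on astrocytes, had 11, 13.9 and 31.7 CPM in the lowest, median and highest library at 200 µM and 17.3, 34.4 and 72.3 CPM at 400 µM. Every library at 400 µM was above the median of 200 µM, and Lif rose 2.29-fold (1.20 ± 0.19 on the log2 scale, edgeR adjusted p = 0.000211). Il11, a cytokine of the same family, rose 2.45-fold, from 10.2 ± 4.78 to 24.9 ± 14 CPM (SD, n = 10 each). Ccl7, a monocyte attractant, went from 13 ± 4.30 to 23 ± 11.9 CPM. Cxcl2, which draws neutrophils, had the largest step of any called gene with at least 1 CPM, 1.54 ± 0.42 (edgeR adjusted p = 0.0449), with libraries at 400 µM spread from 1.94 to 42.3 CPM. That spread was wide, only 3 of 10 libraries lay above the highest at 200 µM (13.3 CPM), and Cxcl2 lost its call in 13 of the 20 fits that left out 1 library and in 3 of the 10 other settings that gave a value. Il6 averaged 1.90 ± 0.812 CPM at 200 µM and 3.60 ± 2.21 CPM at 400 µM and did not pass the test. Among 19 inflammatory effectors and receptors only Ptgs2, the inducible cyclooxygenase, rose (1.20 ± 0.26, from a median of 31 CPM to 63.9 CPM), and the median step of that list was 0.17. The growth factors Inhba (5.64 ± 2.42 to 12 ± 5.47 CPM) and Areg (2.40 ± 0.851 to 4.42 ± 1.95 CPM) and the pentraxin Ptx3 (83.6 ± 29.5 to 154 ± 78.5 CPM) were also among the 15 genes raised most. Without the libraries over 10 CPM of Ttr the median of the cytokine list was 0.12 and that of the effectors 0.00, while Lif, Il11 and Ptgs2 had steps of 0.89, 1.36 and 1.6, of which those of Il11 and Ptgs2 passed. Ptx3 and Esm1, an endothelial proteoglycan, had steps of 0.32 and 0.05 in the same setting, against 0.88 and 1.3 with all libraries. Inhba, Areg and Ccl7 had steps of 1.02, 0.79 and 0.88 there and lost their calls (edgeR adjusted p = 0.0673, 0.22 and 0.148). Areg also lost its call in 10 of the 20 fits that left out 1 library. Esm1, Ptx3 and Fosl1 overlap other genes in the annotation (Gzmk, Veph1 and Ccdc85b), and reads of such pairs may not be told apart.

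The first 2 genes of the step with a promoter entry, by size of the rise, were Cxcl2 and Esm1, and their 250 bases before the start are shown as those of the largest rises. None of the motifs searched was found in them.
Cxcl2, chr5:90903649-90903898, plus strand: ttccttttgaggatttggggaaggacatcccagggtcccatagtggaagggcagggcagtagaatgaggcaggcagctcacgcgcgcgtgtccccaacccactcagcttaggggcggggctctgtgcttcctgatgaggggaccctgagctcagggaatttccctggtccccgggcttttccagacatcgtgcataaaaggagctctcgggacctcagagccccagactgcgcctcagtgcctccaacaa
Esm1, chr13:113209409-113209658, plus strand: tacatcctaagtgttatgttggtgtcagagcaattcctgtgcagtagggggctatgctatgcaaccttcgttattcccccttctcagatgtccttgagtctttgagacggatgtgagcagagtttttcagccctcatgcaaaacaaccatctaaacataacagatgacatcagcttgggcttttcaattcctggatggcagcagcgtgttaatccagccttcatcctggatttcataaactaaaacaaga

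Some NRF2 targets rose in the step and others were level. Of 34 measured NRF2 targets, 7 rose in the step (Srxn1, Abcc1, Osgin1, Esd, Txnrd1, Sqstm1 and Blvrb), 1 fell (Ugdh), 18 were level and the others were neither. Since 56.8% of all genes were level, the number of level targets is no result about them. Of all genes 0.707% rose and 0.559% fell. The median of the targets was 0.13. Srxn1, which repairs oxidized peroxiredoxins, had 144, 181 and 237 CPM in the lowest, median and highest library at 200 µM and 186, 266 and 329 CPM at 400 µM. All 10 libraries at 400 µM exceeded the median of 200 µM, and the step was 0.51 ± 0.09 (edgeR adjusted p = 0.000371). Osgin1, an oxidative stress-induced growth inhibitor, rose by 0.48 ± 0.10 and Txnrd1, thioredoxin reductase, by 0.27 ± 0.06 on the log2 scale. Blvrb, biliverdin reductase B, went from 41 ± 7.31 to 57.5 ± 11.1 CPM. Sqstm1, the p62 autophagy receptor that also frees NRF2 from KEAP1, went from 717 ± 116 to 941 ± 170 CPM. Without the libraries over 10 CPM of Ttr Srxn1, Txnrd1 and Esd rose, none fell and the median was 0.15. Ugdh, which makes UDP-glucuronate, fell from 95.1 ± 6.79 to 83.3 ± 5.73 CPM and was at 102 CPM in controls.

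Other targets of the same factor were level. Gstm1, a glutathione transferase, had 309, 389 and 454 CPM in the lowest, median and highest library at 200 µM and 307, 381 and 460 CPM at 400 µM. The groups of Gstm1 overlapped throughout and its step was -0.02 with a 95% interval from -0.17 to 0.12, although it had risen from 254 CPM in controls to 343 CPM at 50 µM. G6pdx and Tkt, enzymes of the pentose phosphate pathway that regenerates NADPH, had steps of -0.01 and 0.02, and Cat, catalase, 0.06, and all 3 were level by the rule above. Gclm, the modifier subunit of glutamate cysteine ligase, was at 229 ± 20.6 and 254 ± 19.3 CPM (step 0.15, 95% interval 0.02 to 0.27), and passed under 2 of the 11 other settings. Nqo1, a quinone reductase, lay in between: 8 of 10 libraries at 400 µM were above the highest at 200 µM (22.5 CPM), yet its step of 0.27 ± 0.08 did not pass the test (edgeR adjusted p = 0.0872), and it passed under 4 of the 11 other settings. Among 9 regulators of NRF2 only Maff, a small MAF partner, rose (0.59 ± 0.15), with a median of 0.12, and it lost its call without the libraries over 10 CPM of Ttr (0 of 9 called, median 0.13). Of 17 genes of glutathione synthesis and use, Slc3a2 and Chac1 rose (median 0.11), and Slc7a11, the cystine carrier, had 529.9 ± 81 CPM at 200 µM and 680.02 ± 179 CPM at 400 µM (step 0.36, 95% interval 0.07 to 0.65, edgeR adjusted p = 0.267) and passed under 3 of the 11 other settings. Leaving out the libraries over 10 CPM of Ttr left 0 of the 17 called, with a median of 0.05. Of 12 measured ferroptosis regulators Chac1 alone passed (median 0.00), and none did without those libraries (median -0.03). Of all genes 0.707% rose in the step.

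The antioxidant response element, searched as TGACNNNGC on both strands of the same promoters, stood in 11 of the 29 NRF2 targets with an entry and in 16.8% of tested genes. Of the NRF2 targets that rose, 2 of 6 with an entry held it, and their sites are shown in the same way.
Txnrd1, chr10:82859104-82859132, plus strand: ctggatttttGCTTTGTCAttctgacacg
Srxn1, chr2:152105542-152105570, plus strand: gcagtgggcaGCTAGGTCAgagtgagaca
The Srxn1 match begins 28 bases after the annotated start and the Txnrd1 match 92 bases before it. Hmox1 has no entry in the promoter table.

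**Figure D3:**
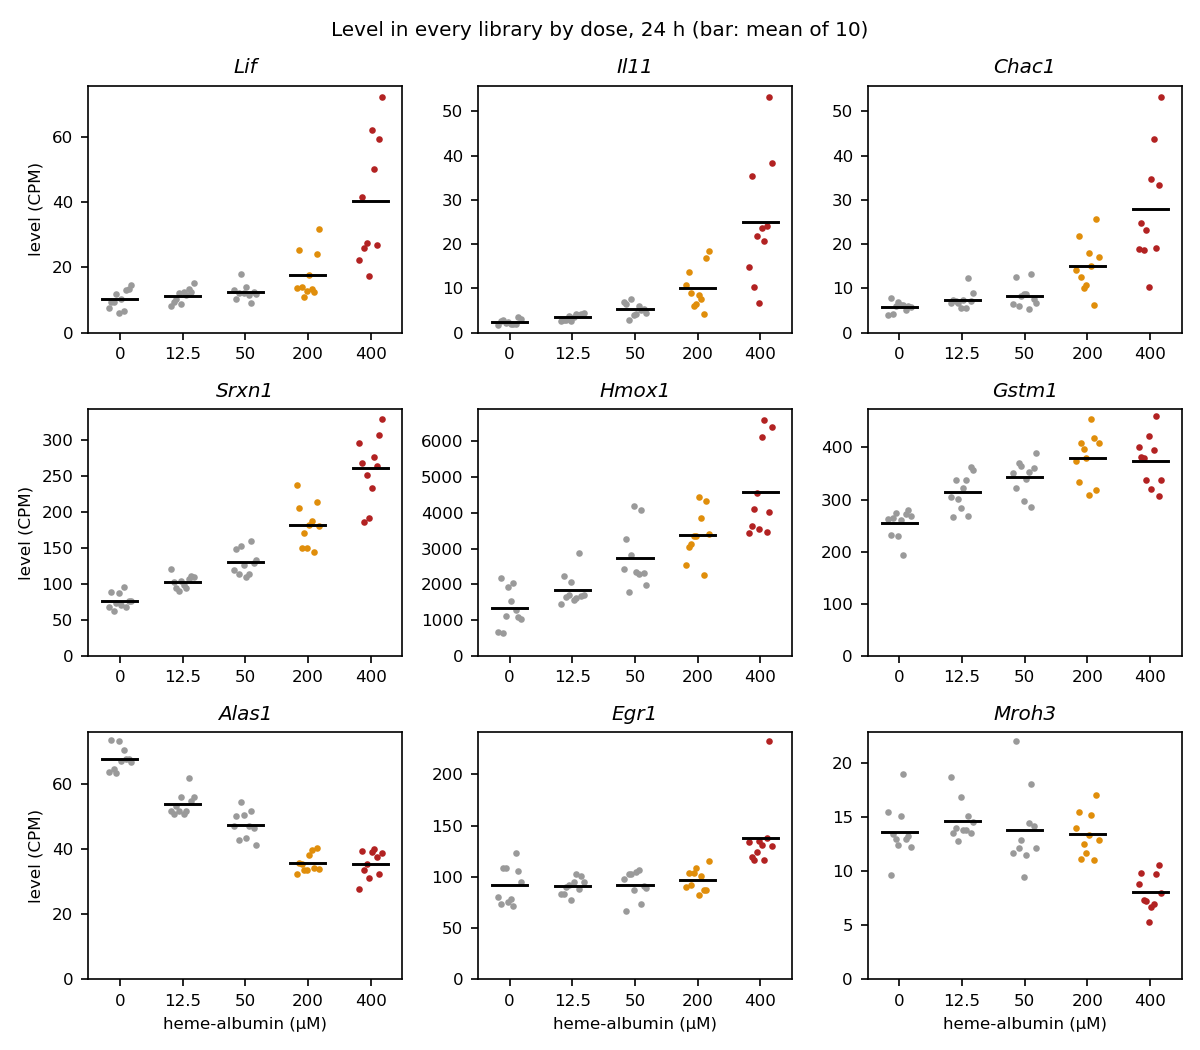
Level (CPM, linear axes from 0) of 9 genes in every library by heme-albumin dose, with 10 libraries per dose and a bar at the mean. Lif, Il11, Chac1 and Srxn1 still rose between 200 and 400 µM, Gstm1 and Alas1 were level, and Egr1 and Mroh3 stayed near their control level up to 200 µM and moved at 400 µM.

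On the lists of heme breakdown and transport, heme synthesis and iron handling only Blvrb passed in edgeR, against 0.707% of all genes raised. Hmox1 averaged 1349 ± 551 CPM in controls, 1852 ± 426 at 12.5 µM, 2746 ± 834 at 50 µM, 3372 ± 704 at 200 µM and 4585 ± 1279 at 400 µM (SD, n = 10 each). All 10 libraries at 400 µM were above the median of 200 µM and 4 were above its highest library, but the step of 0.44 ± 0.18 did not pass the test (edgeR adjusted p = 0.287). It passed under 2 of the 11 other settings, both with a replicate block, and the adjusted p over the settings and the fits that left out 1 library ran from 0.0166 to 0.641. Of 13 genes of heme breakdown and transport Blvrb alone rose, and the median was 0.00. Blvrb lost its call without the libraries over 10 CPM of Ttr (edgeR adjusted p = 0.137, 0 of 13 called, median -0.05) and in the fit of the 20 libraries alone. Slc48a1, which carries heme out of the lysosome, had a step of 0.18 (95% interval 0.01 to 0.34), and the scavenger receptors Cd163 and Lrp1 had steps of -0.17 and -0.03. All 8 enzymes of heme synthesis were level, against 56.8% of all genes, with a median of -0.06. None passed in edgeR at an adjusted or unadjusted p under 0.05 or in DESeq2. Alas1 had 32.4, 34.9 and 40.5 CPM in the lowest, median and highest library at 200 µM and 27.8, 36.6 and 40.1 CPM at 400 µM. It had fallen from 67.9 CPM in controls to 47.6 CPM at 50 µM, and its step was -0.01 with a 95% interval from -0.13 to 0.11. Of 18 iron genes none passed in edgeR, 5 did at an unadjusted p under 0.05 and DESeq2 called Slc25a37, the mitochondrial iron importer (step 0.21). Of the 18, 9 were level, against 56.8% of all genes, and the median was 0.01. Slc40a1, the iron exporter ferroportin, had a step of 0.35 (95% interval 0.02 to 0.69), and Tfrc, the transferrin receptor, was at 70.5 ± 15.1 CPM at 200 µM and 56 ± 22.1 CPM at 400 µM.

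Genes already raised at 50 µM were chosen on other libraries, since neither the 50 µM libraries nor the controls enter the difference of the step. Both comparisons came from 1 fit with a shared estimate of each gene's spread. A gene with a small spread is therefore easier to call in both, and the share that rose further is not an independent test. At 50 µM, 70 genes were higher (0.45% of all tested) and 2 lower (0.0129%) than in controls. Of the 70, 12 rose further between 200 and 400 µM, none fell, 30 were level (42.9%, against 56.8% of all genes) and 28 were neither. The difference was positive in 63, against 8129 of all 15554 genes, with a median of 0.16. The share that rose further was 17.1%, against 0.707% of all genes. Those that rose further were Il11, Fosl1, Srxn1, Blvrb, Osgin1, Slc3a2, Sqstm1, Ypel5, Abcc1, Esd, Txnrd1 and Psmd11, a proteasome subunit. The level ones included Ephx1, Cbr3, Taldo1, Sod1, Sod2 and Tnfrsf1a, the tumor necrosis factor receptor, whose step was -0.06 (95% interval -0.13 to 0.01). Some level genes had an interval wholly above 0 and so a small rise. Ephx1, for example, averaged 203 CPM at 200 µM and 222 CPM at 400 µM (step 0.13, 95% interval 0.04 to 0.21). With the libraries over 10 CPM of Ttr left out, 7 of the 70 rose (Esd, Fosl1, Il11, Psmd11, Srxn1, Txnrd1 and Ypel5), none fell, 64 had a positive step and the median was 0.14. Among the 26 genes raised at least 1.5-fold at 50 µM, all had a positive step, 6 rose further and 1 was level (median 0.38). Acod1, which makes itaconate in macrophages, was the widest of all: its median was 0.899 CPM at 200 µM and 1.03 CPM at 400 µM, and 1 library at 400 µM reached 27.3 CPM. The 50 µM libraries by which Acod1 was chosen were also very uneven (6.62 ± 18.2 CPM, against 0.371 ± 0.28 CPM in controls, SD, n = 10 each). Both genes lowered at 50 µM, Alas1 and Fam228b, were level.

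**Figure D4:**
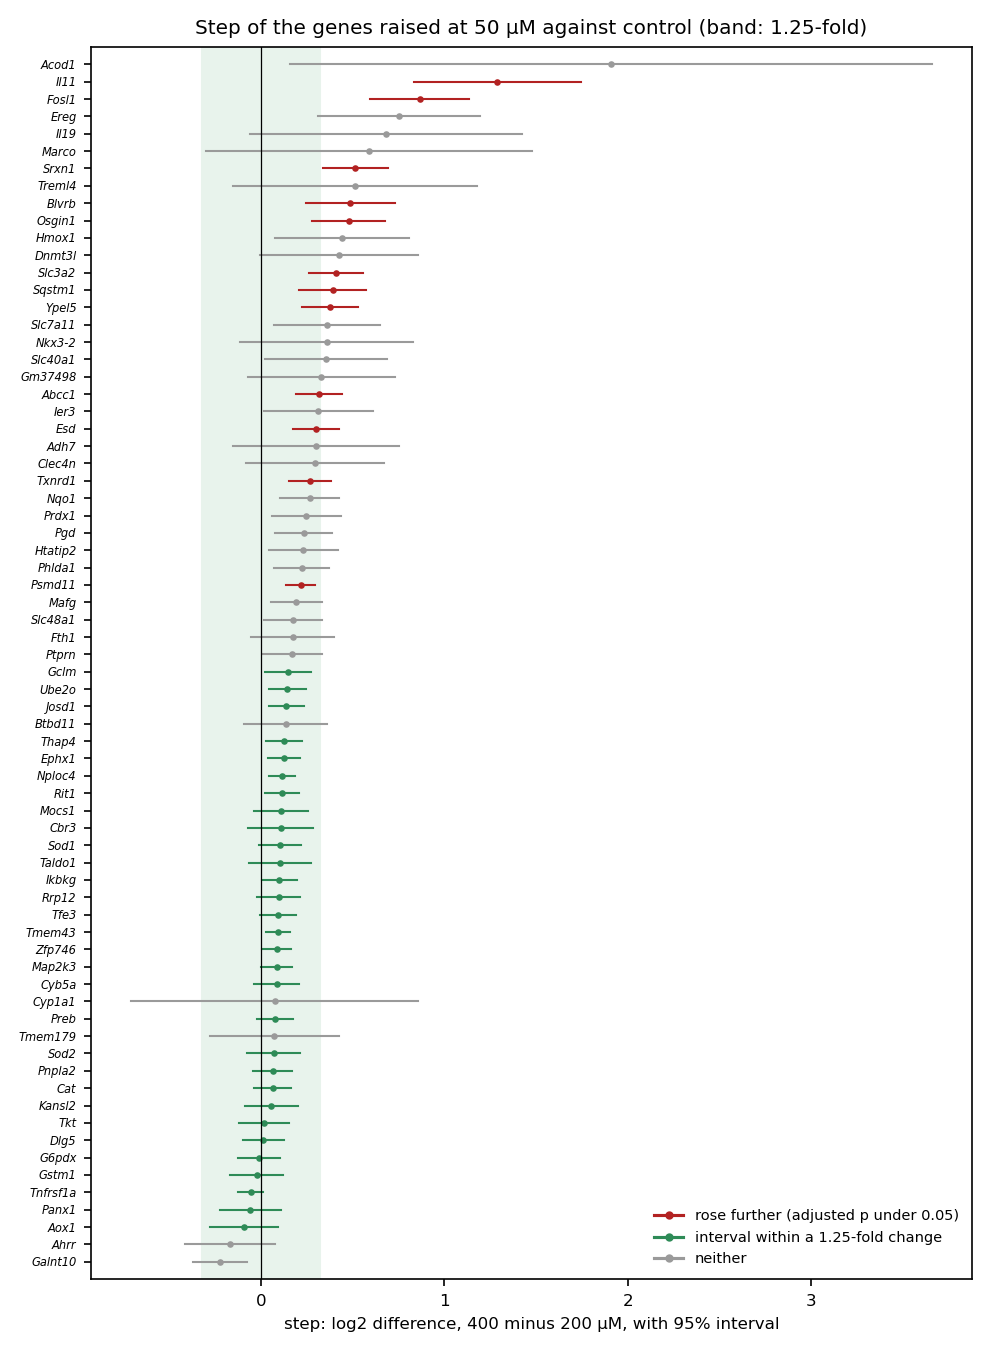
Step (log2 difference, 400 minus 200 µM) with its 95% interval for each of the 70 genes raised at 50 µM against control, ordered by size. The 12 red genes rose further, the 30 green ones have intervals inside the shaded band of the 25% limit, and the grey ones meet neither rule.

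The genes of the step were also looked up at 50 µM. Of the 110 genes higher at 400 µM, 94 had a higher mean at 50 µM than in controls (85.5%, against 46.9% of all genes), with a median difference of 0.14. Of the 87 genes lower at 400 µM, 70 were lower at 50 µM than in controls (80.5%, against 53.1% of all genes), with a median of -0.09. Most of these differences were small against their error: 12 of the former and none of the latter had been called at 50 µM (0.45% and 0.0129% of all genes), and the median SE of a step over all genes was 0.10.

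Among the genes that fell were those of matrix and of receptors. Hapln1 and Acan, the link protein and aggrecan core of perineuronal nets, fell by 0.97 ± 0.21 and 0.77 ± 0.14 on the log2 scale (edgeR adjusted p = 0.00626 and 0.00117). Acan had 9.49, 17 and 23.4 CPM in the lowest, median and highest library at 200 µM and 8.41, 9.53 and 14.1 CPM at 400 µM, and every library at 400 µM was below the median of 200 µM. Its controls averaged 29.9 CPM and the libraries at 50 µM 24.8 CPM. Gpr17, a receptor of differentiating oligodendrocyte precursors, stayed near control up to 200 µM (117 CPM in controls, 113 at 50 µM, 112 ± 11.3 at 200 µM) and fell to 77.1 ± 8.07 CPM at 400 µM, where 9 of 10 libraries lay below the lowest at 200 µM. Mroh3 behaved in the same way (13.7 CPM in controls, 13.5 ± 2.00 at 200 µM and 8.04 ± 1.65 at 400 µM), with no overlap between the doses. Aldoc, the aldolase of astrocytes, fell from 370 ± 46.4 to 292 ± 40.3 CPM, and Slc14a1, a urea channel, from 62.9 ± 8.35 to 47.4 ± 8.10 CPM. Crym, a thyroid hormone binding protein, and Gpr179, an orphan receptor, fell by 0.69 ± 0.14 and 0.60 ± 0.10 on the log2 scale, and both kept their call without the libraries over 10 CPM of Ttr, as did Gpr17, Mroh3 and Slc14a1. In that setting Hapln1, Acan and Aldoc had steps of -0.99, -0.57 and -0.47 and lost their call (edgeR adjusted p = 0.0713, 0.11 and 0.0541). Of 24 synaptic and channel genes only Kcna2, a potassium channel, fell (37.7 ± 2.24 to 29.96 ± 5.12 CPM), against 0.559% of all genes, and the median was 0.03.

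The 250 bases before the start of Hapln1, the gene with the largest fall and a promoter entry, held the letters TGCACNC of the metal response element on the opposite strand, shown in capitals. These letters or TGCGCNC stood in 40.1% of tested genes with an entry, and in 30 of the 62 genes that fell.
Hapln1, chr13:89540386-89540635, plus strand: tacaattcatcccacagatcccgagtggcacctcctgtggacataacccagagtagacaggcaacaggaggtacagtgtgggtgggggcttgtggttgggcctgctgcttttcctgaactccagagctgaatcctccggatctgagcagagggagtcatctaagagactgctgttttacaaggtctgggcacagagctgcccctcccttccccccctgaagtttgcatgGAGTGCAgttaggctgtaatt

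Stress and quality control lists outside these programmes each held 1 to 3 genes that rose, against 0.707% of all genes. Of 34 proteasome subunits 33 had a positive step, against 8129 of all 15554 genes, and 1, Psmd11, rose (list median 0.10). The level of Psmd11 was between 123 and 140 CPM at 200 µM and between 136 and 162 CPM at 400 µM (0.22 ± 0.04, edgeR adjusted p = 0.000992). Of 19 cytosolic heat shock chaperones, Hspa1a and Hspa1b rose (0.86 ± 0.22 and 0.89 ± 0.21, median of the list 0.10), and these near-identical copies of the inducible HSP70 gene can share reads. Hspb1 was at 19.2 CPM at 200 µM and 33.6 CPM at 400 µM without passing. The heat shock element, 3 alternating GAA and TTC units with 2 bases between them, stood in 2 of the 15 chaperones with a promoter entry and in 0.532% of tested genes. Of 20 targets of p53, Eda2r, Sesn2 and Gdf15 rose and none fell (median 0.23), and 2 of these are ATF4 targets as well. Of 27 lysosome and autophagy genes Sqstm1 rose (median 0.06). Of 4 measured aryl hydrocarbon receptor targets, Tiparp rose and the median was -0.05. Of the genes in this paragraph, Psmd11, Hspa1a, Hspa1b and Eda2r passed without the libraries over 10 CPM of Ttr, whereas Sesn2, Gdf15, Sqstm1 and Tiparp did not, and the medians of the lysosome and aryl hydrocarbon receptor lists changed sign (-0.07 and 0.11).

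Other lists held no member that passed in edgeR. All but 1 of the 22 measured genes of cholesterol synthesis were level, against 56.8% of all genes, with a median of -0.02. None passed at an unadjusted p under 0.05 or in DESeq2, while 10 of them had been higher at 200 µM than in controls. Sqle, squalene epoxidase, had a step of -0.03. The letters of the sterol response element, TCACNCCAC, were found in 1 of 15 of their promoters and in 1.41% of tested genes. Of 19 chaperones of the endoplasmic reticulum none was called in edgeR, 6 were lower at an unadjusted p under 0.05 and DESeq2 called Pdia4 lower (median -0.08), and Hspa5, the BiP chaperone, was at 525 ± 47.3 and 494 ± 46.2 CPM. The medians were -0.13 for the 6 metallothionein and zinc genes, 0.10 for 20 hypoxia targets, -0.07 for 16 interferon-stimulated genes, 0.14 for 15 genes of disease-associated microglia and -0.13 for 9 mitochondrially encoded genes. Those of the hypoxia targets, the genes of disease-associated microglia, the mitochondrially encoded genes and the cholesterol genes changed sign without the libraries over 10 CPM of Ttr (-0.07, -0.16, 0.03 and 0.02), and that of the interferon-stimulated genes was -0.26. The 21 proliferation genes all had a negative step, against 7425 of all 15554 genes. None was called in edgeR or DESeq2, 10 were at an unadjusted p under 0.05, and the list median was -0.33. That median was -0.02 without the libraries over 10 CPM of Ttr and -0.16 with the choroid plexus covariate.

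**Figure D5:**
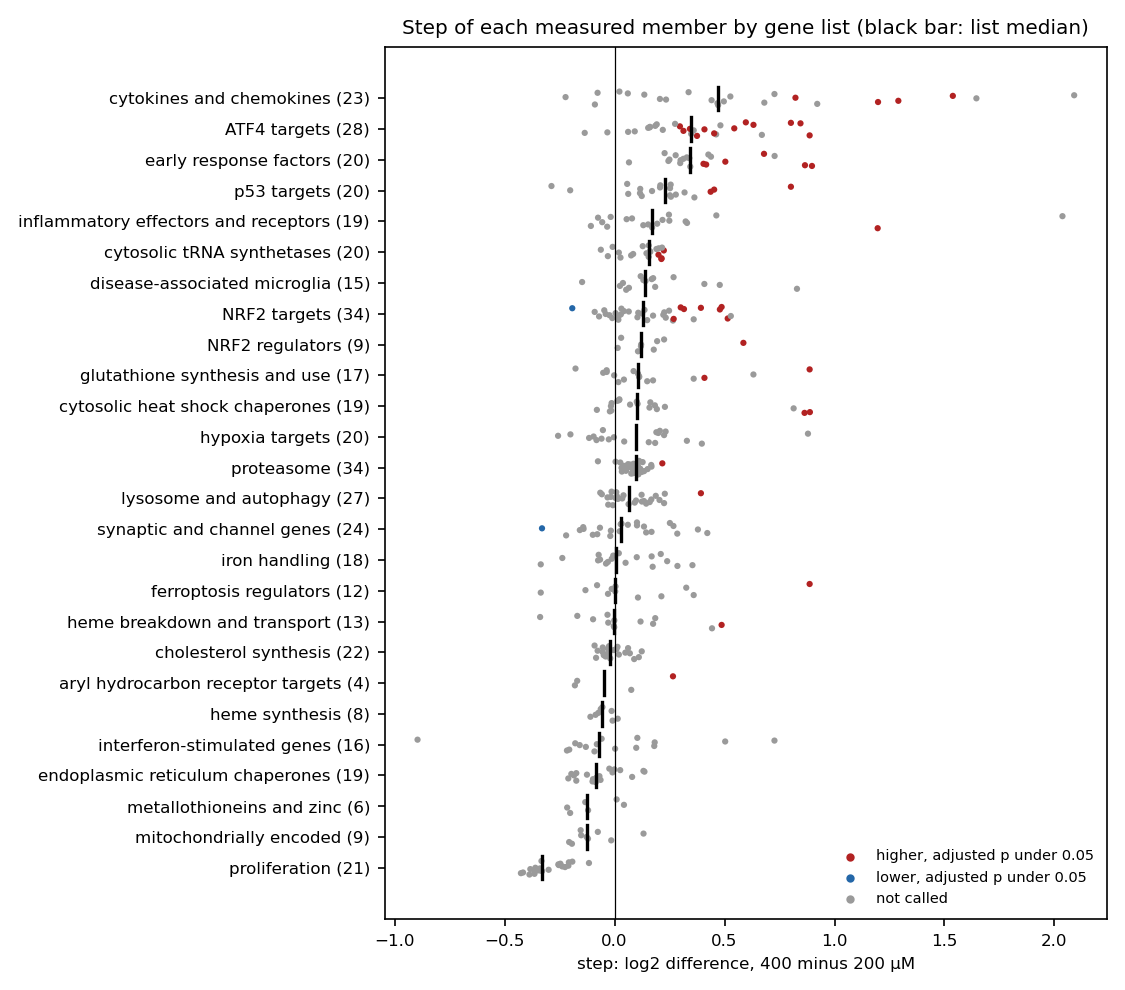
Step (log2 difference, 400 minus 200 µM) of each measured member of 26 gene lists, with the number measured in brackets and a black bar at the median. Red and blue members passed the test in either direction; ATF4 targets, early response factors and cytokines have medians over 0.3, whereas heme synthesis and cholesterol synthesis lie close to 0.

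Cell type markers moved unevenly. Aldoc, on the list of 12 astrocyte markers (median -0.18), and Gpr17, on that of 6 oligodendrocyte precursor markers (median -0.11), fell, against 0.559% of all genes. No other marker passed in edgeR or DESeq2. The medians were 0.31 for neurons, 0.10 for oligodendrocytes, 0.25 for microglia, 0.04 for border macrophages, 0.28 for endothelial cells, 0.02 for mural cells, -0.23 for ependymal cells, 0.71 for fibroblasts and meninges and 0.72 for choroid plexus. With the libraries over 10 CPM of Ttr left out, the medians were -0.17 for fibroblasts and meninges, -0.43 for choroid plexus, -0.33 for microglia, -0.15 for oligodendrocytes, -0.28 for mural cells, -0.07 for border macrophages, -0.01 for endothelial cells and 0.30 for neurons, so that 7 of these 8 changed sign. The summed level of the 7 fibroblast and meningeal markers ran from 239 to 1380 CPM at 200 µM and from 314 to 3272 CPM at 400 µM, that of the microglial markers from 677 to 1692 CPM and from 736 to 2191 CPM, and that of the 5 choroid plexus markers from 4.81 to 1167 CPM and from 3.52 to 995 CPM. No red blood cell marker passed the filter, and their sum did not exceed 0.136 CPM. Clic6, a choroid plexus marker, was called lower in that setting and Gpr17 kept its call. The part of these contents in the steps of the genes named here was not tested beyond the settings given beside them.

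Whether the rise per doubling of the dose had changed was tested by setting the step against the difference between 50 and 200 µM divided by its 2 doublings. No gene of 15554 passed in either direction in edgeR, 392 were slower and 205 faster at an unadjusted p under 0.05, and DESeq2 called 1, Vxn. Slower and faster are taken relative to the direction between 50 and 200 µM. A level step therefore describes the step alone. The median difference per doubling of the ATF4 targets was 0.19 between 50 and 200 µM and 0.35 in the step, that of the early response factors 0.09 and 0.34, and that of the NRF2 targets 0.08 and 0.13. The step was also compared between the 5 libraries of each dose with the letter M in their names and the 5 with the letter W: of 14909 genes none passed the edgeR test of that interaction, and 531 did at an unadjusted p under 0.05.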

How the data were processed

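Per the labels and file headers, the values deposited by the authors are raw read counts, 1 table per library with genes as Ensembl identifiers, from TruSeq mRNA libraries. The submitters' processing notes name featureCounts and GRCm39 without a role or version, and the aligner and the strand setting are not given in the sources used here. Of 25655 gene identifiers, 25600 were named and placed with GENCODE M21 (GRCm38), and reads of overlapping or near-identical genes could not be told apart. Ddit3, which 2 identifiers share, was left off the ATF4 list. Of these 2 entries 1 was called higher in the step (0.59 ± 0.16, edgeR adjusted p = 0.0358). Without the libraries over 10 CPM of Ttr that entry had a step of 0.33 and lost its call (edgeR adjusted p = 0.491).

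All 60 libraries of the first batch were fitted together with edgeR 4.0.16 in R 4.3.3 (TMM scaling, filterByExpr with a smallest count of 10, quasi-likelihood F test), with no covariate, and p-values were adjusted by Benjamini and Hochberg over the 15554 genes tested. Levels are CPM with TMM scaling. A standard error is the log2 difference divided by the square root of F, and the 95% interval uses the t quantile. The labels name no separate animals or cultures, so that p-values measure only the spread between these libraries. No 2 replicates were alike within counting noise (lowest chi-square per degree of freedom 6.09).

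On simulated counts with 200 genes changed in the step (15476 genes fitted) the fit called 38% of those changed by 0.25 on the log2 scale, 73% of those changed by 0.5 and 94% of those changed by 1. It also made 13 false calls among the unchanged genes. The simulated libraries were drawn independently with 1 spread per gene. They held neither the uneven choroid plexus content nor the correlation between libraries of the same number. These rates describe such counts only and may differ in the real libraries. DESeq2 1.42.0 and the other settings are compared in the closing section. The genes and lists were chosen with earlier results of these data known. Named are 10 genes taken from the text of the study, the 15 raised most and the 15 lowered most in the step and the 10 and 5 moved most at 50 µM with at least 1 CPM, and up to 4 members of each list with the smallest p. Txnrd1, Ugdh, Atf4, Ddit3, Dusp5, Ypel5, Slc14a1, Vxn, Pnlip, Atp6v0a2 and further list members were named after their values were seen. Sequences are from RefSeq (GRCm38.p6), with an entry for 145 of the 191 genes tabulated. Some genes and 1 promoter site that the rules select are not reported here.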

Additional observations from a re-analysis of the deposited data

Results flagged for a closer look

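Among the 172 groups of 10 libraries examined (86 genes at each dose), 12 held a library that stood apart from the other 9 by more than the 95% limit of Dixon's test, where chance gives about 1 in 20. At 200 µM the low ones were Slc48a1 in replicate 8 (280 CPM, next lowest 364), Gpr84 in replicate 1 (1.01 CPM, next 1.98) and Marco, a macrophage scavenger receptor, in replicate 1 (3.11 CPM, next 8.81). The high ones at 200 µM were Inhba in replicate 9 (11.8 CPM, next highest 6.46) and Adh7 in replicate 1 (2.90 CPM, next 1.90). At 400 µM replicate 9 was high for Gprc5a (6.43 CPM, next 2.89), Acan (14.1 CPM, next 10.6), Egr1 (233 CPM, next 137) and Eda2r (42.8 CPM, next 29). Acod1 was high in replicate 2 (27.3 CPM, next 1.98), Il19 low in replicate 1 (0.366 CPM, next 1.54) and Cars low in replicate 5 (60.9 CPM, next 78.8).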

How the results depend on the processing

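None of the 197 genes called in the step changed sign under any setting run, but the counts of calls moved. RLE scaling, no filter on low counts, a filter of at least 10 counts in every library and the library letter as a covariate (this last chosen after seeing the data) kept both counts within 1.5 times. DESeq2 called 173 genes higher. With only the 20 libraries of the step, 11 genes were higher and 18 lower, and the lists lost most calls: none of the ATF4 targets, tRNA synthetases, cytokines or p53 targets passed in edgeR, 1 of the early response factors did (Egr1) and 2 of the NRF2 targets (Osgin1 and Srxn1), while the medians of these lists stayed at 0.35, 0.16, 0.47, 0.23, 0.34 and 0.13. In that fit 1561 of all genes had an unadjusted p under 0.05. Both settings on the choroid plexus were chosen after seeing the data: without the libraries over 10 CPM of Ttr the counts were 36 and 52, and with the covariate 240 and 245. Leaving out each of the 20 libraries in turn gave 42 to 194 genes higher and 48 to 148 lower. The count of genes higher moved by over 1.5 times without replicates 4 (46), 5 (59), 7 (71) and 8 (62) at 200 µM and without replicates 5 (194), 6 (61), 7 (72), 9 (47) and 10 (42) at 400 µM, and that of genes lower without replicate 4 at 200 µM (57) and replicates 5 (148), 6 (48) and 10 (53) at 400 µM. The cause was not tested. Over these 20 cases the count of ATF4 targets raised ran from 4 to 15, of early response factors from 4 to 8, of NRF2 targets from 5 to 8, of cytokines from 2 to 5 and of tRNA synthetases from 0 to 8, with the medians of the first 4 lists staying between 0.29 and 0.38, 0.28 and 0.42, 0.10 and 0.14, and 0.35 and 0.61.

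Libraries of the 2 doses share replicate numbers. Deviations from the group means correlated between libraries with the same number in 8 of 10 pairs at over 0.1 (median 0.27, lowest -0.04 in pair 9), which misses the rule used here that every pair exceed 0.1, and the labels do not say what a number marks. Of the libraries, 4 at 200 µM and 5 at 400 µM correlated best with their own number, a hint from the data and not from the design. With the replicate number as a block on the 20 libraries 211 genes were higher and 191 lower, with the block and a correction for GC content and length 308 and 262, and with the code in the library names as a block on all 60 libraries 180 and 141. With the block Hmox1 (adjusted p = 0.0271), Slc7a11 (0.0429), Gclm (0.0311) and Nqo1 (0.0456) passed, and with the correction Slc48a1 as well (0.0251). The block left the letter interaction at 0 calls (1203 at an unadjusted p under 0.05).

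With the code block the test of the slope called 1 gene slower (Vxn) and 1 faster (Gpr17), and DESeq2 called 1 slower (Vxn), all outside the rule for named genes except Gpr17. Of genes raised at 50 µM, 6 rose further and 1 was level when a 1.5-fold rise was required, 2 and 3 when the selection was made at 12.5 µM, and 23 and 105 of 164 with the code block. Of genes lowered at 50 µM, 1 was level when the selection was made at 12.5 µM, and with the code block 16 of 34 were level with a median of -0.12. The median standard error of a step was 0.10 on the log2 scale, so that a step of that size without a call is not shown to be absent.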
